A study of Mus musculus with 2 samples.

Results

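Genes of the Toll-like receptor and inflammasome pathways, taken as every row of the count matrix whose symbol was Tlr2, Tlr4, Tlr13, Cd14, Myd88, Nlrp3, Pycard, Casp1, Casp4 or Gsdmd, 10 in all, were followed through tumor-associated neutrophils (TANs) of Smad3-WT and Smad3-KO mice. All 10 symbols were found among the 31053 genes of the matrix. TANs had been sorted by flow cytometry as CD11b+Ly6G+ cells from subcutaneous tumors of the Lewis lung carcinoma line (LLC), a mouse lung cancer line, grown in C57BL/6 J mice that were wild-type for Smad3 or lacked it (Smad3-/-), with 8 tumors pooled into each library and mice of both sexes aged 8 to 12 weeks. Both groups carried the same tumor line and differed by genotype, and each group was 1 library of a droplet-based 5′ single-cell RNA assay, in which each captured RNA molecule is read as a unique molecular identifier (UMI). No difference between the genotypes therefore had a replicate check. Every interval given is at 95% and covers counting error only, since animals, tumors, sorting and library preparation each varied with the genotype and cannot be told apart from it.

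Toll-like receptors sense microbial and damage-derived molecules. TLR2 binds bacterial lipoproteins at the cell surface, TLR4 responds to bacterial lipopolysaccharide handed over by the co-receptor CD14, and TLR13, a receptor of mice that humans lack, senses bacterial ribosomal RNA in endosomes. These receptors signal through the adaptor MyD88 to NF-kB, which drives transcription of inflammatory cytokines and of NLRP3. The NLRP3 inflammasome is built from the sensor NLRP3, the adaptor ASC (encoded by Pycard) and caspase-1 (Casp1), which matures interleukin-1β. Caspase-11 (encoded by Casp4 in mice) binds cytosolic lipopolysaccharide directly, and both caspases cut gasdermin D (Gsdmd), whose fragment opens pores in the cell membrane. Neutrophils are known to use these receptors to prolong their survival and to release interleukin-1 at sites of inflammation.

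Promoter sequences show where these genes could be read by the factors at the end of the pathway. RefSeq promoters of 300 bases (250 before to 50 after the start of transcription, build GRCm38.p6) were used for 7 of the 10 genes, in 9 entries, and those of Tlr4, Gsdmd and Cd14 were not used here. A match to the NF-kB consensus, searched on both strands, lay in the promoters of Tlr2, Casp4 and Nlrp3, which is 3 of the 7 genes against 4.51% of all 32851 promoters of this length. Here and below, a gene was counted if any of its entries matched, whereas the share over all promoters is per entry. The interferon-response element, a pair of GAAA letters set apart by 2 bases, was found in Myd88 alone of the 7, against 3.44% of all promoters. These 4 promoters are shown from 5′ to 3′ on the strand of the gene because the pathway's own receptor, adaptor, sensor and caspase are among them, and capitals mark the NF-kB or interferon-response matches. No NF-kB match overlapped an interferon-response match.
Tlr2, chr3:83841559-83841858, minus strand: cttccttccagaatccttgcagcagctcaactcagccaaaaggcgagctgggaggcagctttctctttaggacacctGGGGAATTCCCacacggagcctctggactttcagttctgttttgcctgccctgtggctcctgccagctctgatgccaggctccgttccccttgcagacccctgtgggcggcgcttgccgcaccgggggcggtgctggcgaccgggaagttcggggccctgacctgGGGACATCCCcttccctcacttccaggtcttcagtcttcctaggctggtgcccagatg
Casp4, chr9:5308599-5308898, plus strand: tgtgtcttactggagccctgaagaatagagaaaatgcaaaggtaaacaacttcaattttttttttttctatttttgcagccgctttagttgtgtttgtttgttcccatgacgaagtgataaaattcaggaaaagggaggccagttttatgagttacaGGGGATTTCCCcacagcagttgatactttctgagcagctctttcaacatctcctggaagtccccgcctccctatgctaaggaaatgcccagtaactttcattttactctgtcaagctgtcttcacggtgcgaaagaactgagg
Nlrp3, chr11:59541319-59541618, plus strand: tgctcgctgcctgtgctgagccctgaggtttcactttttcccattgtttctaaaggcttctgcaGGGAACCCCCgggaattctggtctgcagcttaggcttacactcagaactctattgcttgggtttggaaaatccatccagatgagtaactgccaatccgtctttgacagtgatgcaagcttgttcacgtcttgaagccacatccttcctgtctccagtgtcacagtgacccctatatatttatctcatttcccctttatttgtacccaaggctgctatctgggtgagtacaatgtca
Myd88, chr9:119339969-119340268, minus strand: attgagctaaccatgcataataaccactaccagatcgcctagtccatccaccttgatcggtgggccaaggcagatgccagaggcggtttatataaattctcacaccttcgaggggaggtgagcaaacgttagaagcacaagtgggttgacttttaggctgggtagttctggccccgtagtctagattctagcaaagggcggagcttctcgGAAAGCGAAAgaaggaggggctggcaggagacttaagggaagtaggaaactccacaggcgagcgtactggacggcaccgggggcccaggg

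In Casp4 the capital run held 3 overlapping matches, the first of which began 93 bases before the start of transcription. They include the same bases read on both strands, so they are not 3 separate sites. Tlr2 carried a like run of 3 overlapping matches beginning 173 bases before the start, again with the same bases read on both strands. A separate match in Tlr2 lay 8 bases before the start. The match in Nlrp3 was on the minus strand and began 186 bases before the start of this transcript; a further start of Nlrp3 (chr11:59542436-59542735) had no NF-kB match. The myeloid PU.1 core GAGGAA was present in 4 of the 7 genes (Casp1, Nlrp3, Pycard and Tlr13), against 28.3% of all promoters. The Smad-binding letters CAGACA were present in 1 of the 7, at the further start of Nlrp3, against 21.0%. These matches describe letters in the reference genome, and nothing in the data measured binding.

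Quality filtering kept 3520 of 4116 barcodes of the Smad3-WT library and 2433 of 2514 of the Smad3-KO library, with 12176201 and 4146792 UMIs and medians of 1318.5 and 1199 UMIs per cell. The libraries shared 73 barcode sequences, of which 24 Smad3-WT and 46 Smad3-KO cells were kept. Smad3 itself had 178 UMIs (14.6 CPM, the UMIs of a gene per 1000000 UMIs of the cells summed) in the Smad3-WT library and 321 UMIs (77.4 CPM) in the Smad3-KO library. The mutant allele is disrupted downstream in the transcript while 5′ reads come from its start, so these counts check nothing about the genotype, and the groups below rest on the labels. Cells were clustered without the 10 genes and without 63 further genes of the pathway, and clusters were named from marker lists. The Smad3-WT library held 1816 neutrophil-like (51.6%), 946 macrophage or monocyte-like (26.9%) and 6 B cell-like cells. The Smad3-KO library held 1080 (44.4%), 147 (6.04%) and 578, so the sorted libraries held other classes, in unlike proportions. Left without a class were 253 Smad3-WT (7.19%) and 51 Smad3-KO cells (2.10%). Among them, clusters 701, 702 and 706 came nearest to the macrophage or monocyte list but are not part of that class below. They held 91, 61 and 28 Smad3-WT and 3, 1 and 5 Smad3-KO cells. In the neutrophil-like cells, all 10 neutrophil markers summed to 87484 CPM in Smad3-WT and 99585 CPM in Smad3-KO, while the 14 macrophage or monocyte markers summed to 595 and 432 CPM, against 10785 and 8147 CPM in the macrophage or monocyte-like cells.

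In neutrophil-like cells, the lipopolysaccharide receptor and its co-receptor stood lower in the Smad3-KO library, and the sensor NLRP3 and caspase-11 stood higher. Tlr4 was 3.88-fold lower and Cd14 2.03-fold lower in Smad3-KO, whereas Nlrp3 was 2.50-fold and Casp4 3.13-fold higher. Pycard was 3.20-fold lower on few UMIs, and the other 5 genes differed by less than 2-fold. With a difference counted when it reached 2-fold with at least 20 UMIs over both sums, 2 of the 10 genes were higher and 3 lower in Smad3-KO, where 7.63% of the 6119 genes with that many UMIs were higher and 18.5% were lower. The median log2 ratio of the 10 genes was -0.19, beside -0.33 over all genes. Without the barcodes that both libraries share, the ratios of these 5 genes were 0.258 for Tlr4, 0.490 for Cd14, 2.50 for Nlrp3, 3.13 for Casp4 and 0.315 for Pycard.

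**Figure D1:**
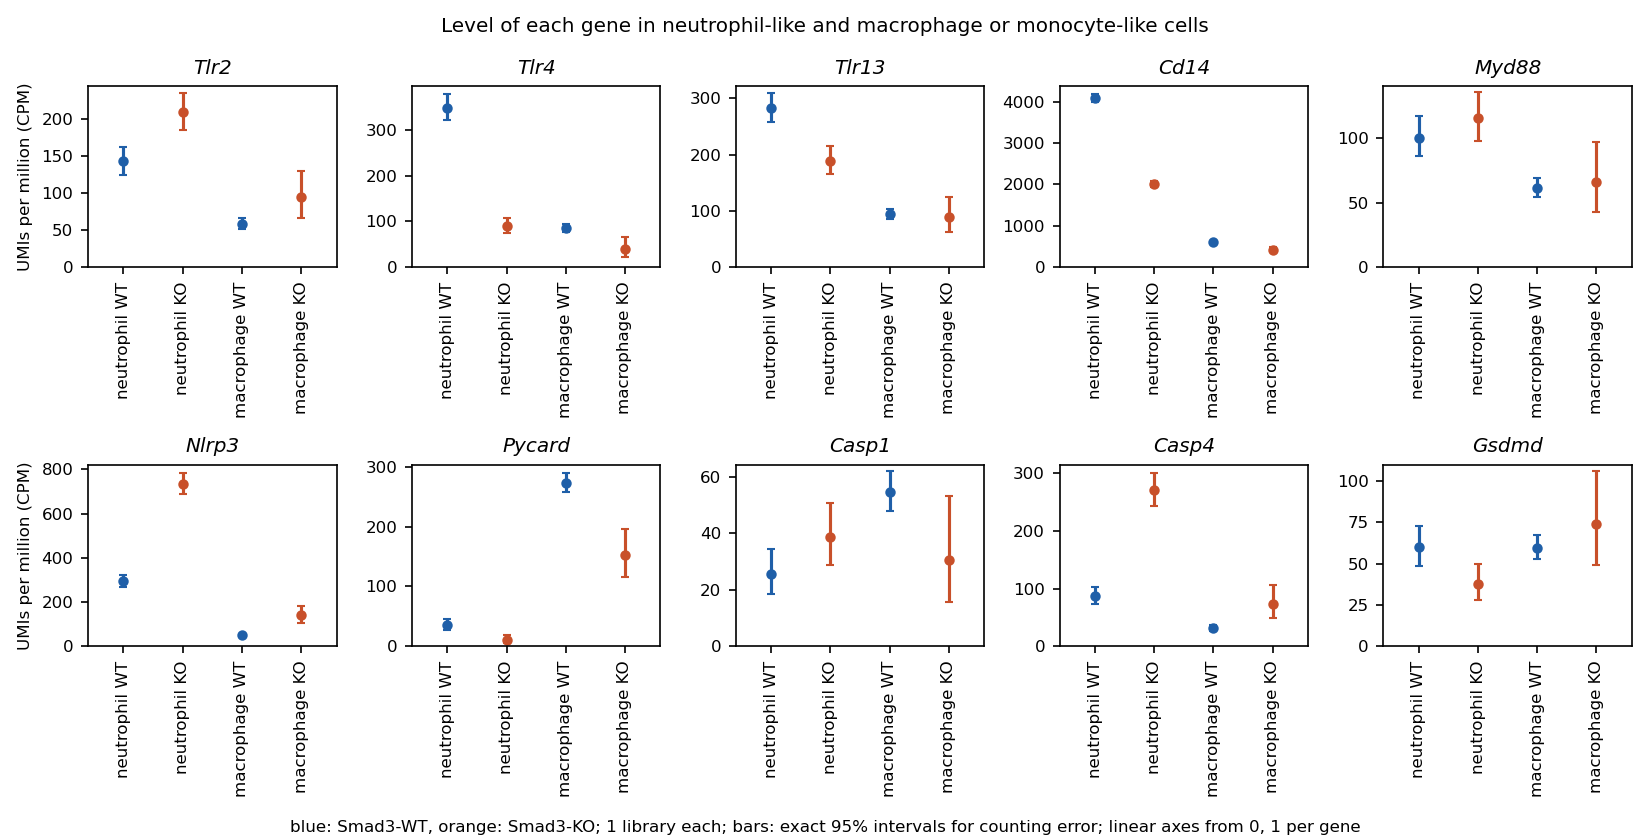
Level of each of the 10 genes (CPM, linear axes from 0, with a panel for each gene) in neutrophil-like and in macrophage or monocyte-like cells of the Smad3-WT and Smad3-KO library, with exact Poisson intervals of counting error as bars. In neutrophil-like cells Tlr4 sat at 348 CPM in Smad3-WT and 89.6 in Smad3-KO, and Nlrp3 at 294 and 735.

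Among the receptors, Tlr4 had 574 UMIs in Smad3-WT neutrophil-like cells, or 348 CPM (interval 320 to 378), and 116 UMIs in Smad3-KO, or 89.6 CPM (74.1 to 107). The ratio of Smad3-KO over Smad3-WT was 0.258 (0.209 to 0.315), and the intervals of the levels lay far apart. Cd14, the co-receptor that hands lipopolysaccharide to TLR4, was at 4090.0 CPM (3993 to 4189) in Smad3-WT and 2012 CPM (1935 to 2091) in Smad3-KO, a ratio of 0.492 (0.470 to 0.515). The median gene of this comparison was itself lower in Smad3-KO. When the libraries were scaled to the median gene instead of the total, all 10 genes kept their direction, and Cd14 stood at a ratio of 0.623 and no longer reached 2-fold. Cd14 fell short of 2-fold in 9 of 15 alternative settings, with ratios from 0.487 to 0.623 over all of them. Tlr13 was at 283 CPM in Smad3-WT and 189 CPM in Smad3-KO, a ratio of 0.670 (0.572 to 0.784). Tlr2 went the other way, with 142 CPM (125 to 162) in Smad3-WT and 209 CPM (185 to 235) in Smad3-KO, a ratio of 1.46 (1.22 to 1.75). The receptors thus did not share a direction, and Tlr4 and Cd14, which act together on lipopolysaccharide, were those at least 2-fold lower.

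Myd88, the adaptor downstream of TLR2, TLR4 and TLR13, was at 101 CPM in Smad3-WT and 116 CPM in Smad3-KO. Its ratio of 1.15 had an interval of 0.917 to 1.44, which included 1.

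Nlrp3 was at 294 CPM (268 to 321) in Smad3-WT and 735 CPM (689 to 783) in Smad3-KO neutrophil-like cells, on 485 and 951 UMIs, a ratio of 2.50 (2.24 to 2.79). Casp4 was at 86.7 CPM (73.1 to 102) and 271 CPM (243 to 301), on 143 and 351 UMIs, a ratio of 3.13 (2.57 to 3.83). The sensor and the lipopolysaccharide-binding caspase were thus both higher in the Smad3-KO library, with intervals that did not meet. Pycard, which bridges NLRP3 to caspase-1, was at 34.6 CPM in Smad3-WT (57 UMIs) and 10.8 CPM in Smad3-KO (14 UMIs), a ratio of 0.313 (0.161 to 0.569). Casp1 had 42 and 50 UMIs, or 25.5 and 38.6 CPM, and its ratio of 1.52 (0.986 to 2.34) included 1. Gsdmd, the pore former, was at 60.02 CPM in Smad3-WT and 37.9 CPM in Smad3-KO, on 99 and 49 UMIs, a ratio of 0.631 (0.438 to 0.897). The Pycard, Casp1 and Gsdmd values rest on few UMIs, and their shares of cells are set against other classes further on.

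The neutrophil-like class was made of different clusters in the libraries. Cluster 1, led by Ccl3, Gm5483 and Ccl4, held 1085 of the Smad3-WT and 20 of the Smad3-KO cells, and cluster 2, led by Il1a, Ccl3 and Ccrl2, held 33 and 861. Cluster 3, led by Retnlg and Pglyrp1 and carrying Mmp9, Il1r2 and Cxcr2, held 698 and 135, and cluster 12, led by the granule genes Camp, Ngp and Ltf, held 64 Smad3-KO cells and no Smad3-WT cell. Markers of neutrophil precursors summed to 10.3 CPM in Smad3-WT and 7384 CPM in Smad3-KO neutrophil-like cells. Of the 6 listed, 3 were detected in Smad3-WT and 4 in Smad3-KO, with Mpo and Elane at 0 in both and Camp at 0 in Smad3-WT. Without the cells of cluster 12 the ratios were 0.271 for Tlr4, 0.547 for Cd14, 2.77 for Nlrp3 and 3.40 for Casp4, so Cd14 alone of these fell short of 2-fold. Leaving out every cell with a UMI of C1qa, C1qb, C1qc, Apoe or Pf4, which are macrophage genes, gave 0.264, 0.487, 2.51 and 3.21 for the same genes. T or NK markers summed to 30.3 CPM in Smad3-WT and 214 CPM in Smad3-KO neutrophil-like cells (7 and 8 of 9 markers detected, with Ncr1 at 0 in both). Erythroid markers summed to 174 and 1203 CPM (2 of 3 detected, with Alas2 at 0 in both), B cell markers to 0 and 16.2 CPM, and carcinoma markers to 25.5 and 0 CPM. The part of these lists in the values above was not tested.

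Cluster 3 was the neutrophil cluster with over 100 cells from each library, and its comparison was added after the data had been seen. There Tlr4 was at 362 CPM in Smad3-WT and 143 CPM in Smad3-KO, a ratio of 0.396 (0.221 to 0.660), and Cd14 at 4344 and 2176 CPM, a ratio of 0.501 (0.437 to 0.572) that fell just short of 2-fold. Tlr13 was at 256 and 143 CPM, a ratio of 0.560 (0.311 to 0.944). Nlrp3, however, was at 262 CPM in Smad3-WT and 260 CPM in Smad3-KO, a ratio of 0.992 (0.640 to 1.49), and the interval excluded the 2.50-fold difference of the whole class. Casp4 was at 82.7 and 134 CPM, on 42 and 15 UMIs, a ratio of 1.62 (0.837 to 2.99) that included both 1 and 2. Within this cluster Tlr4, Cd14 and Tlr13 were lower in Smad3-KO, with intervals below 1, as in the whole class, while Nlrp3 was level. Tlr2 had a ratio of 1.11, Myd88 of 0.961 and Gsdmd of 0.910, each with an interval that included 1. Pycard had a ratio of 0.414 (0.0471 to 1.68) on 2 Smad3-KO and 22 Smad3-WT UMIs, and Casp1 had 0 and 12. Of the 9 genes with at least 20 UMIs here, none was at least 2-fold higher and 2 (Tlr4 and Pycard) were lower, where 6.42% of 3083 genes were higher and 17.9% lower.

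**Figure D2:**
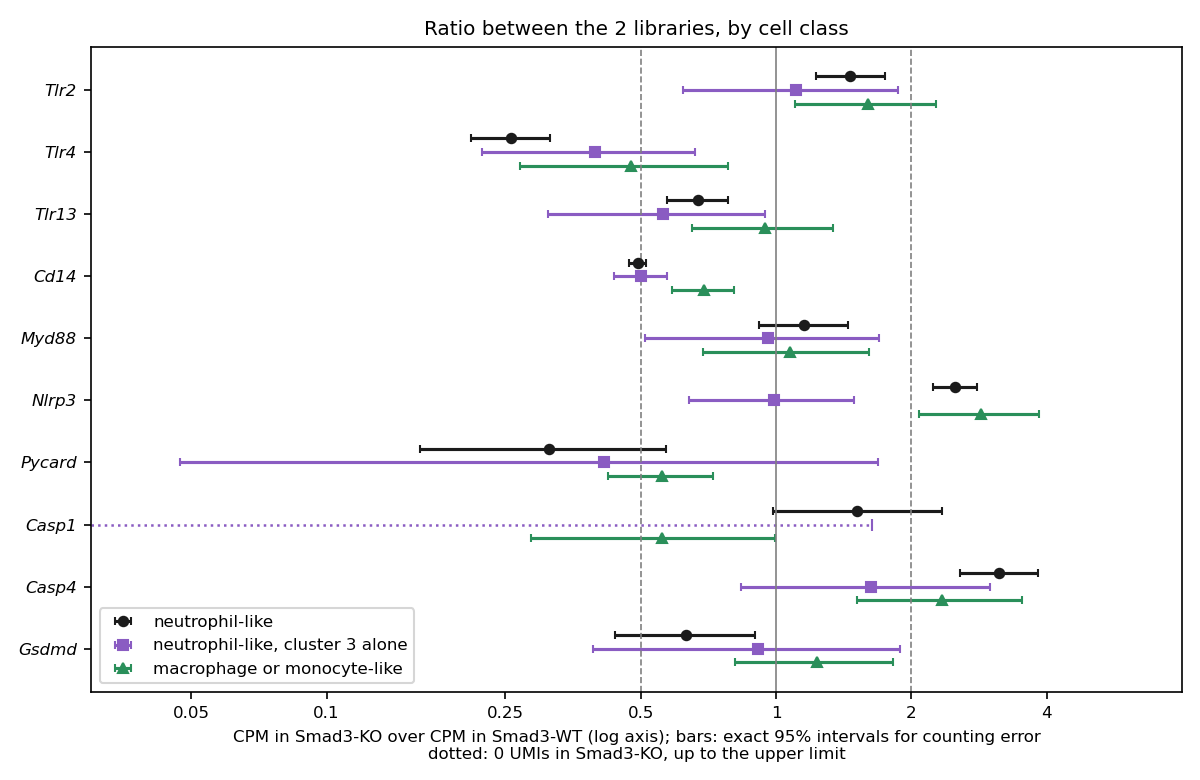
Ratio of CPM in Smad3-KO over CPM in Smad3-WT (log axis) for each gene in neutrophil-like cells, in their cluster 3 alone and in macrophage or monocyte-like cells, with exact intervals of counting error as bars, a dotted line where Smad3-KO had 0 UMIs, and dashed lines at 2-fold in either direction. Nlrp3 lay at 2.50 in neutrophil-like cells and at 0.992 in cluster 3, while Tlr4 lay at 0.258 and 0.396.

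Nlrp3 varied among the larger neutrophil-like clusters of the Smad3-KO library. Its level was 880.2 CPM in the 861 cells of cluster 2, 260 CPM in cluster 3 and 133 CPM in cluster 12, which carries the granule genes. High levels were not particular to neutrophil-like cells. In Smad3-KO, Nlrp3 was at 771 CPM (604 to 969) in the 32 cells of cluster 1003, led by Siglech and left without a class. The 57 cells of a B cell-like cluster (1002) were at 386 CPM (273 to 529). Cluster 2 over cluster 3 gave a ratio of 3.39 (2.34 to 5.09) for Nlrp3 and 2.32 (1.38 to 4.19) for Casp4, while Cd14 was level between them at 1.03 (0.901 to 1.18). Casp1 had 44 UMIs in cluster 2 and 0 in cluster 3, with a lower limit of 1.25 for its ratio. In the Smad3-WT library no such step was seen between its large clusters, where Nlrp3 in cluster 1 (309 CPM) over cluster 3 (262 CPM) had a ratio of 1.18 (0.965 to 1.45). Those clusters differed instead, by less than 2-fold, in Myd88 (ratio of cluster 1 over cluster 3 0.589, 0.427 to 0.814) and Gsdmd (0.525, 0.345 to 0.8004). Cd14 was also slightly lower in cluster 1 (0.925, 0.879 to 0.974). The share of all genes that differed was not computed for the pairs of clusters in this paragraph. The 33 Smad3-WT cells that fell into cluster 2 had 6 UMIs of Nlrp3 (263 CPM), and Smad3-KO over Smad3-WT within cluster 2 was 3.34 (1.53 to 9.14) for Nlrp3 and 0.275 (0.128 to 0.705) for Tlr4. Cd14 was not lower in Smad3-KO within cluster 2, at 1.19 (0.878 to 1.64) on 2278 and 43 UMIs. The remaining genes had intervals that included 1 there. The 20 Smad3-KO cells of cluster 1 had 6 UMIs of Tlr4, at 420 CPM (154 to 915), against 342 CPM in Smad3-WT. Tlr13, on 7 Smad3-KO UMIs, was at 490 CPM (197 to 1010) against 296 CPM in that cluster. Both intervals held the Smad3-WT level and reached well below it, so a lower level of Tlr4 or Tlr13 in Smad3-KO was neither seen nor excluded there. Cd14 was lower in that cluster, at 2522 CPM (1766 to 3492) against 4020 CPM. Between the largest cluster of each library, cluster 2 of Smad3-KO over cluster 1 of Smad3-WT, the ratio was 2.85 for Nlrp3, 3.55 for Casp4, 1.62 for Tlr2, 0.557 for Cd14 and 0.247 for Tlr4.

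The Smad3-KO cells of cluster 12, which carry the granule genes of late precursors, were set against cluster 2 of the same library. The share of all genes that differed between these clusters was not computed, so the values below are a description of each gene. Cd14, Nlrp3, Casp4, Tlr2 and Tlr13 were lower in cluster 12, with intervals below 1. Cd14 was at a ratio of 0.140 (0.102 to 0.186), Nlrp3 at 0.151 (0.0918 to 0.235) and Casp4 at 0.299 (0.161 to 0.509). Tlr2 and Tlr13 were at 0.405 and 0.455. Tlr4 at 0.629 (0.263 to 1.30), Myd88 at 0.554 (0.259 to 1.05), Casp1 at 0.769 (0.238 to 1.93) and Gsdmd at 0.564 (0.111 to 1.78) had intervals that included 1. Pycard was higher in cluster 12, with 5 UMIs against 7 in the larger cluster 2, a ratio of 4.83 (1.21 to 17.7).

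**Figure D3:**
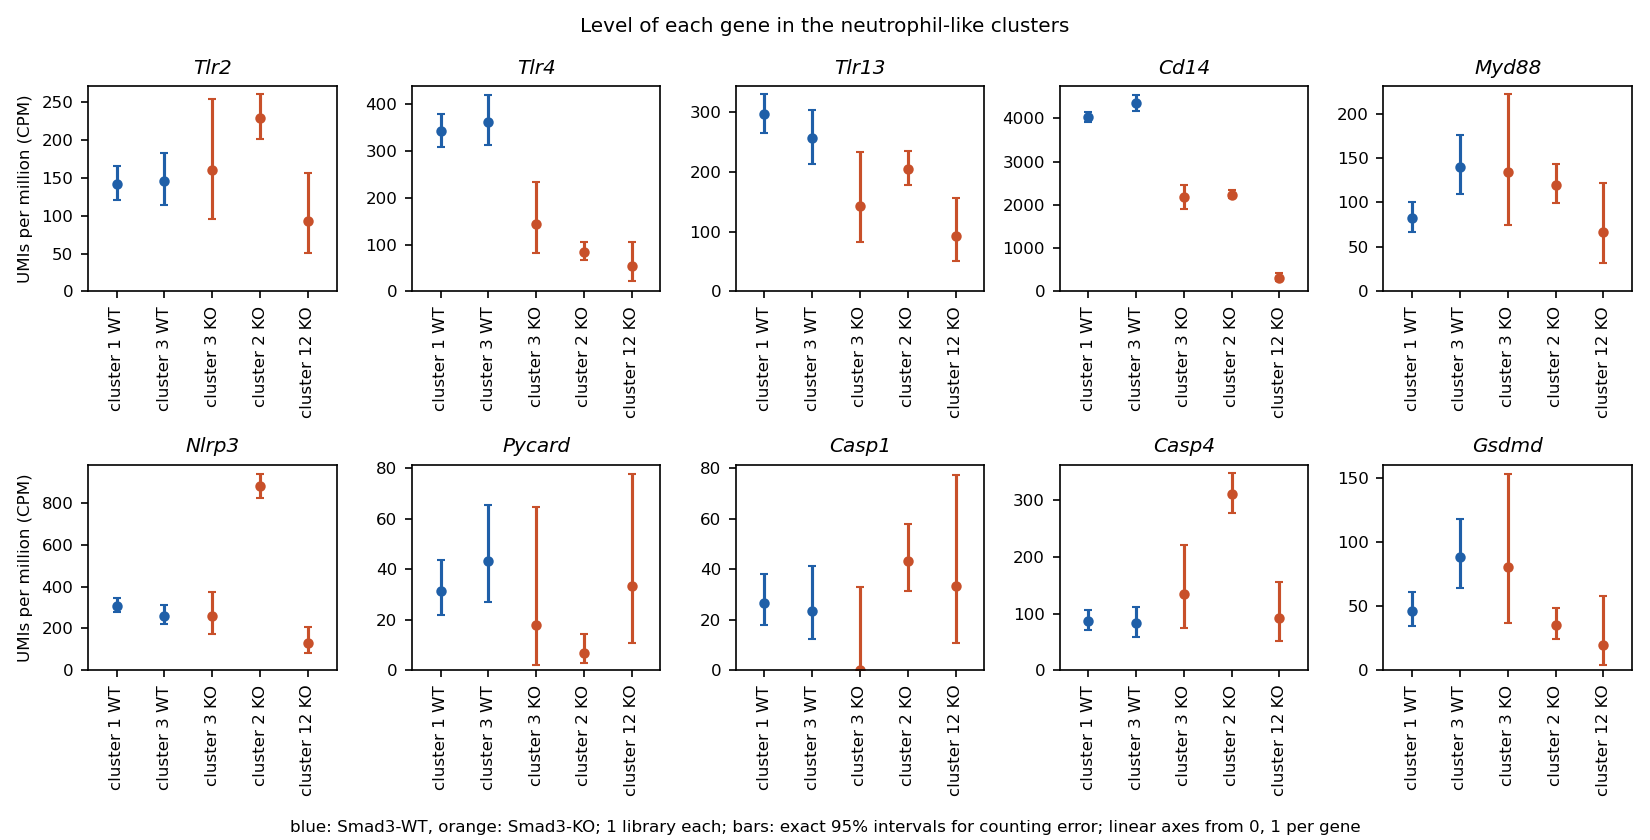
Level (CPM, linear axes from 0) of the 10 genes in the larger neutrophil-like clusters of each library with exact Poisson intervals of counting error. Nlrp3 was at 880.2 CPM in cluster 2 of Smad3-KO and between 133 and 309 CPM in the other large clusters, while Tlr4 was at 342 (cluster 1) and 362 CPM (cluster 3) in Smad3-WT and at 84.5 (cluster 2) and 143 CPM (cluster 3) in Smad3-KO.

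Shares of cells with a UMI told the same genes apart. Since the median depth of neutrophil-like cells was 742 (Smad3-WT) and 1016.5 UMIs (Smad3-KO), each cell was thinned to 500 UMIs. After thinning, the share of neutrophil-like cells with Cd14 was 73.0% for Smad3-WT and 53.6% for Smad3-KO (81.7% and 73.4% before), and that with Tlr4 15.5% and 4.63% (24.4% and 9.81% before). Nlrp3 was detected in 13.6% (interval 12.1% to 15.3%) and 24.8% (22.3% to 27.5%), against 21.3% and 45.4% before thinning, and Casp4 in 3.80% and 11.7%, against 7.32% and 25.4%. Free RNA sets a floor to such shares. In the 325 LLC carcinoma-like cells of Smad3-WT, whose median depth was 13530 UMIs, the thinned shares were 6.15% for Cd14, 1.23% for Tlr4, 1.23% for Nlrp3 and 0.308% for Casp4. Before thinning they were 35.7% for Cd14, 18.5% for Tlr4 and 5.85% for Nlrp3. Thinning cells of this depth also dilutes free RNA, so their thinned shares set no floor for shallower cells. In the 492 cells of a B cell-like cluster of Smad3-KO, at a median of 1210.0 UMIs, the share was 0.407% for Cd14, 0.813% for Tlr4, 0.203% for Nlrp3 and 0.813% for Casp4. Smad3-KO neutrophil-like cells stood above this cluster in these 4 genes. For Smad3-WT neutrophil-like cells no floor of like depth is given here. Their unthinned shares of Cd14, Tlr4 and Nlrp3 were above those of the carcinoma-like cells. The 57 cells of another B cell-like cluster of Smad3-KO had higher shares, of 35.1% for Cd14, 19.3% for Nlrp3 and 10.5% for Casp4, which brought the B cell-like class of 578 cells to 5.54%, 2.25% and 1.73%. In the 413 T or NK-like cells of Smad3-KO, at a median of 1307 UMIs, the shares were 0.484%, 0.242% and 0.484%, and 0% for Tlr4, which allows up to 0.889%.

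The thinned shares of the inflammasome's adaptor, caspase-1 and pore former were low and differed in their place against these classes. Pycard was found in 1.43% (Smad3-WT) and 0.278% (Smad3-KO) of neutrophil-like cells, where the B cell-like cluster had 2.44%. Casp1 was found in 1.65% and 1.67%, against 2.03%, and Gsdmd in 2.64% and 1.67%, against 3.25%. The carcinoma-like cells of Smad3-WT were lower, at 0.308% for Pycard, 0.308% for Casp1 and 0.923% for Gsdmd, which is no floor at their depth. Before thinning, Pycard was found in 5.23% of them and in 2.64% of Smad3-WT neutrophil-like cells. The T or NK-like cells of Smad3-KO had 7.75% for Pycard, 0% for Casp1 (with the same limit) and 0.969% for Gsdmd. The shares in neutrophil-like cells of both libraries were thus not above those of the B cell-like cluster, which may transcribe these genes itself. Expression of these genes by neutrophil-like cells of either library is not read from the shares. Myd88 was found in 5.34% and 6.39%, against 1.83%, and Tlr2 in 5.89% and 9.26%, against 0.407%.

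**Figure D4:**
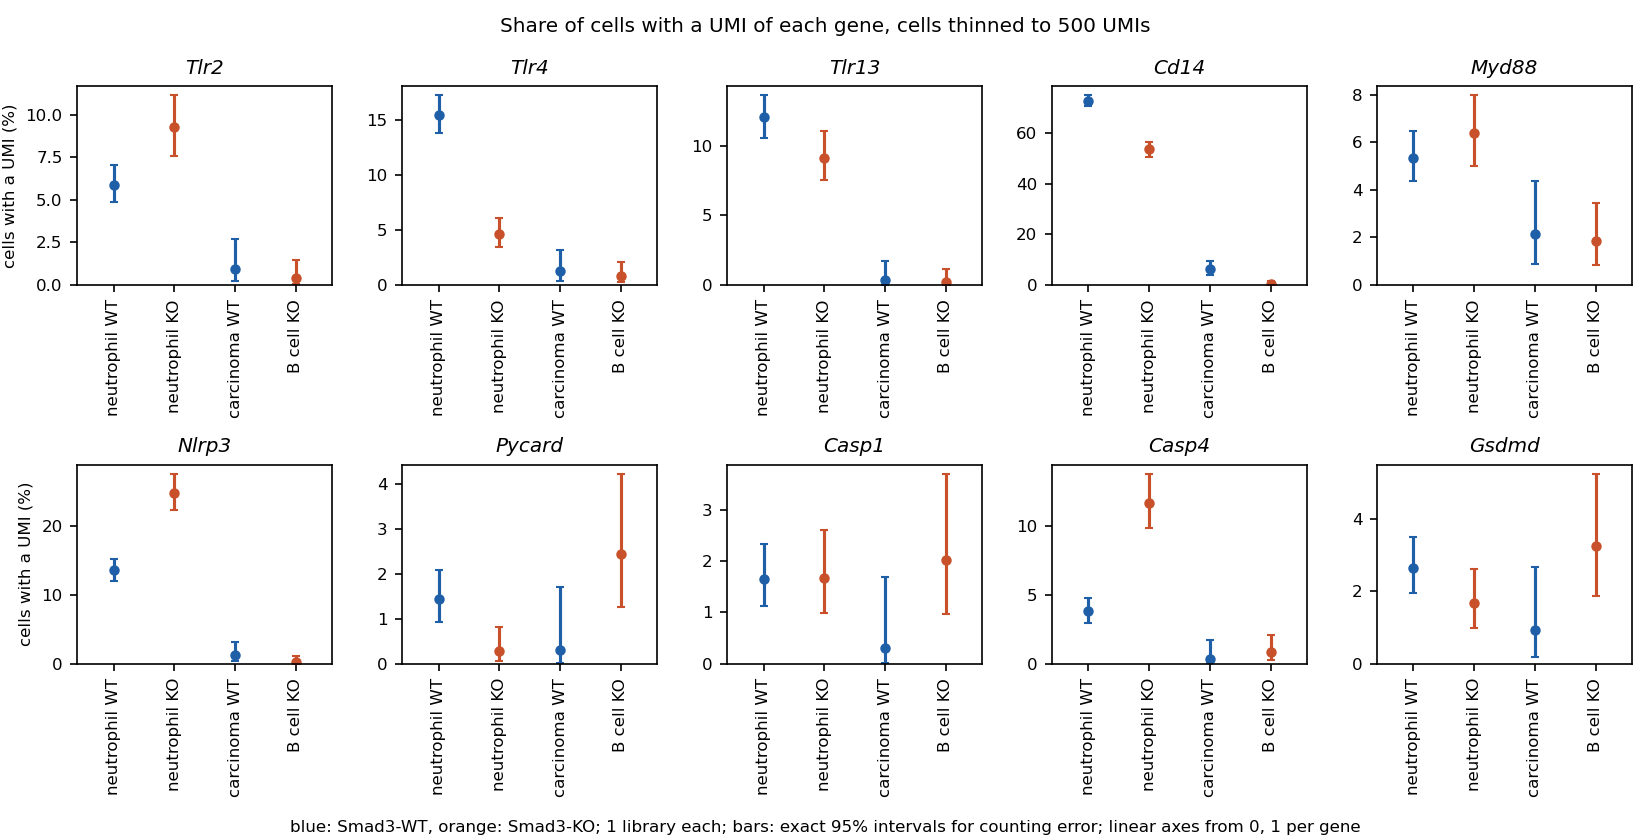
Share of cells with a UMI of each gene after thinning every cell to 500 UMIs, with Clopper-Pearson intervals, in neutrophil-like cells of each library, in the carcinoma-like cells of Smad3-WT and in the 492-cell B cell-like cluster of Smad3-KO. Nlrp3 was at 13.6% in Smad3-WT and 24.8% in Smad3-KO, while Pycard was at 1.43% and 0.278%.

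Macrophage or monocyte-like cells offered a further myeloid class, in which Nlrp3 and Casp4 were again higher and Tlr4 lower in the Smad3-KO library, on 147 Smad3-KO cells. Nlrp3 was at 49.1 CPM in Smad3-WT and 140 CPM (105 to 182) in Smad3-KO, a ratio of 2.85 (2.08 to 3.85). Casp4 was at 31.5 and 73.7 CPM, a ratio of 2.34 (1.51 to 3.52). Tlr4 was at 85.6 and 40.7 CPM, a ratio of 0.475 (0.269 to 0.782), on 16 Smad3-KO UMIs. Over 11 alternative settings the ratio of Tlr4 ran from 0.131 to 0.849 and fell short of 2-fold in 3. The other 7 genes differed by less than 2-fold, with Pycard at 274 and 153 CPM (ratio 0.557, 0.423 to 0.723), Cd14 at 608 and 420 CPM (0.690) and Tlr2 at 58.8 and 94.1 CPM (1.60). Thus 2 of the 10 genes were higher and 1 lower, where 12.3% of 9578 genes were higher and 14.7% lower.

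Neutrophil markers were also present in these cells, and Nlrp3 and Casp4 were no longer higher in Smad3-KO when the cells that carried most of them were left out. Neutrophil markers (10 of 10 detected) summed to 4182 CPM in Smad3-WT and 8358 CPM in Smad3-KO macrophage or monocyte-like cells. T or NK markers summed to 70.8 and 610 CPM, dendritic markers to 40.03 and 303 CPM, B cell markers to 4.397 and 117 CPM, and carcinoma markers to 225 and 20.3 CPM, and the part of these lists was not tested. Of the 55 Smad3-KO UMIs of Nlrp3, 52 lay in the 59 cells of cluster 1001, led by Arg1, at 321 CPM, and the 40 cells of cluster 705 had none. When cells with at least 3 of the neutrophil markers S100a9, S100a8, Csf3r and Il1rn were left out, 84 Smad3-KO and 672 Smad3-WT cells remained. The ratio was then 0.813 for Nlrp3 and 0.989 for Casp4. No intervals are given for these ratios, and the whole class held only 55 and 29 Smad3-KO UMIs of these genes. The Smad3-WT cells of this class were mostly clusters 4 (688 cells, led by Chil3 and Ppbp) and 9 (256 cells, led by Ccl8 and C1q genes), which held 27 and 21 Smad3-KO cells, so the class was not the same mix in the libraries.

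Within each library, neutrophil-like cells were set against macrophage or monocyte-like cells, which come from the same droplet run but differ in depth per cell (medians of 742 and 3294.5 UMIs in Smad3-WT and 1016.5 and 2482 in Smad3-KO). In Smad3-WT, Cd14 was 6.73-fold, Nlrp3 5.99-fold, Tlr4 4.06-fold, Tlr13 3.01-fold, Casp4 2.75-fold and Tlr2 2.42-fold higher in neutrophil-like cells. Pycard was 7.92-fold (6.07 to 10.5) and Casp1 2.14-fold (1.54 to 3.05) lower in them, and Myd88 (1.64) and Gsdmd (1.01) differed by less than 2-fold. The background was 11.8% of 9749 genes higher and 50.9% lower, with a median log2 ratio of -0.998 over all genes and 1.37 over the 10. In Smad3-KO the same 6 genes were higher in neutrophil-like cells, by 5.25-fold for Nlrp3, 4.80-fold for Cd14, 3.68-fold for Casp4, 2.22-fold for Tlr2, 2.20-fold for Tlr4 and 2.13-fold for Tlr13. Pycard was 14.1-fold (7.79 to 27.3) lower, and Gsdmd (ratio 0.513), Casp1 (1.27) and Myd88 (1.75) differed by less than 2-fold. In that library 14.2% of 5497 genes were higher and 44.5% lower, with a median log2 ratio of -0.77 over all genes and 1.09 over the 10. Scaled to the median gene, each ratio was higher, and Casp1 in Smad3-WT (0.914) no longer reached 2-fold, while Myd88 did in both libraries (3.21 and 2.94) and Casp1 in Smad3-KO (2.12). In both libraries Tlr2, Tlr4, Tlr13, Cd14, Nlrp3 and Casp4 were on the neutrophil side, and Pycard was on the macrophage side, under either scaling. Of these 6 receptor, sensor and caspase genes, Tlr13 fell short of 2-fold in 6 of 11 alternative settings in Smad3-KO, Tlr4 in 4 and Tlr2 in 3. In Smad3-WT, Tlr2 fell short in 2 of 11.

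Summed over all kept cells, Nlrp3 was 4.20-fold (3.84 to 4.60) and Casp4 3.71-fold (3.23 to 4.26) higher in Smad3-KO, and Tlr4 was 2.37-fold (2.01 to 2.80) lower. Cd14 had a ratio of 0.873 in this sum and Pycard of 0.502. Here 2 of the 10 genes were higher and 1 lower, where 16.3% of 12612 genes were higher and 15.4% lower. In such a sum fewer cells of a type and less RNA per cell cannot be told apart, and the makeup of the libraries differed as given above.

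The other genes of the pathway were taken from a list of 63, of which 41 had at least 20 UMIs in neutrophil-like cells. Of these, 9 were at least 2-fold higher and 4 lower in Smad3-KO, with a median log2 ratio of -0.10, where all genes gave 7.63% higher and 18.5% lower and a median of -0.33. Of the 6 inhibitors of the pathway counted, 3 were higher and none lower. Tnfaip3, which encodes the deubiquitinase A20 that ends NF-kB signalling, was at 156 CPM in Smad3-WT and 1550 CPM in Smad3-KO, a ratio of 9.91 (8.70 to 11.3), and its partner Tnip1 and the kinase-dead Irak3 had ratios of 6.47 and 4.69. Of the 16 kinases, ligases and transcription factors counted, Ikbke (7.99), Traf3 (2.42) and Tbk1 (2.33), which act in the interferon branch, were higher, and Irf5 (0.475) and Ikbkg (0.405), the scaffold of the IkB kinase, were lower. Among the 3 other Toll-like receptors counted, Tlr1, the partner of TLR2, was higher at 3.82 and Tlr7, which senses single-stranded RNA, at 2.68. Of the 5 co-receptors and adaptors, Tirap, which links TLR2 and TLR4 to MyD88, was lower at 0.448, and of the 5 inflammasome sensors and partners Naip2 was lower at 0.425. Of the 6 caspases, gasdermins and products counted, Il1a was higher at 11.2 (9.14 to 13.9), and Il1b, at 9067 CPM in Smad3-WT and 9077 CPM in Smad3-KO, was level.

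The same list was counted in the other sums, in which different numbers of its genes had enough UMIs. In cluster 3 alone, 29 of its genes were counted, 3 higher and 6 lower in Smad3-KO (6.42% and 17.9% of all genes), with Tnfaip3 at 4.45 (2.89 to 6.86) and Irf5 at 0.111 (0.0132 to 0.414, on 2 and 82 UMIs). In macrophage or monocyte-like cells 53 were counted, 14 higher and 3 lower (12.3% and 14.7% of all genes). Tnfaip3 was at 12.7, Il1a at 14.1, Tnip1 at 4.72 and Il1b at 2.25 there, and Tlr5 and Tlr8, on 57 and 64 Smad3-WT UMIs, had 0 in Smad3-KO. Neutrophil markers summed to 4182 CPM (Smad3-WT) and 8358 CPM (Smad3-KO) in the macrophage or monocyte-like cells. The list was not recounted without the cells that carried most of these markers, so their part in its ratios was not tested. Between classes, neutrophil-like cells of Smad3-WT had 12 of 54 genes higher and 20 lower than macrophage or monocyte-like cells (11.8% and 50.9% of all genes), with Il1b at 11.02 and Nlrp12, an NLR protein that restrains NF-kB signalling, at 13.9 on the high side. Nek7, the kinase that licenses NLRP3, was at a ratio of 0.0732 (5 and 179 UMIs), and Unc93b1, the chaperone of endosomal receptors, at 0.355. In Smad3-KO, 13 of 38 genes were higher and 7 lower (14.2% and 44.5% of all genes), with Unc93b1 at 0.180 and Il1b at 4.90. Over all cells, 60 of the genes were counted, 12 higher and 6 lower in Smad3-KO (16.3% and 15.4% of all genes).

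The deposited table of averages over 13 clusters, made by the authors over both libraries and on a scale that the sources used here do not give, placed the genes on the same classes. Its cluster numbers are its own and do not match those above. Deposited clusters 1, 3, 4, 6 and 10 carried the neutrophil markers, 5, 7 and 12 those of macrophages or monocytes, 13 dendritic, 8 B cell, 9 T or NK, 2 fibroblast and 11 carcinoma markers. Deposited cluster 4 held 10 of 10 neutrophil markers, yet its leading genes were hemoglobin and immunoglobulin genes (Hba-a1, Hbb-bs, Igkc), and it also held 4 of 5 B cell markers. Deposited cluster 10 held 10 of 10 neutrophil markers and also 8 of 14 macrophage or monocyte markers. Deposited cluster 2 also held 5 of 6 carcinoma markers, and cluster 12 also held 4 of 5 fibroblast markers. Tlr4 had its highest average in deposited cluster 1 (0.474), followed by clusters 6 (0.440) and 10 (0.327), and was at 0.107 in cluster 3. Deposited cluster 3, led by Il1a, Csf3 and Tnfaip3, instead had the highest averages of Nlrp3 (1.21), Casp4 (0.456) and Tlr2 (0.315), and the lowest of Pycard (0.00335). Pycard was highest in the macrophage clusters 5 (0.428) and 7 (0.40), followed by the T or NK cluster (0.198). Casp1 was also highest in clusters 5 (0.103) and 7 (0.0747). Cd14 was highest in cluster 6 (5.90), close to cluster 1 (5.79), Tlr13 in cluster 1 (0.379), Myd88 in cluster 6 (0.198) and Gsdmd in cluster 7 (0.102), close to clusters 13 (0.0987) and 5 (0.0959). No spread over samples was given for these averages, so neighbours in each order cannot be separated.

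**Figure D5:**
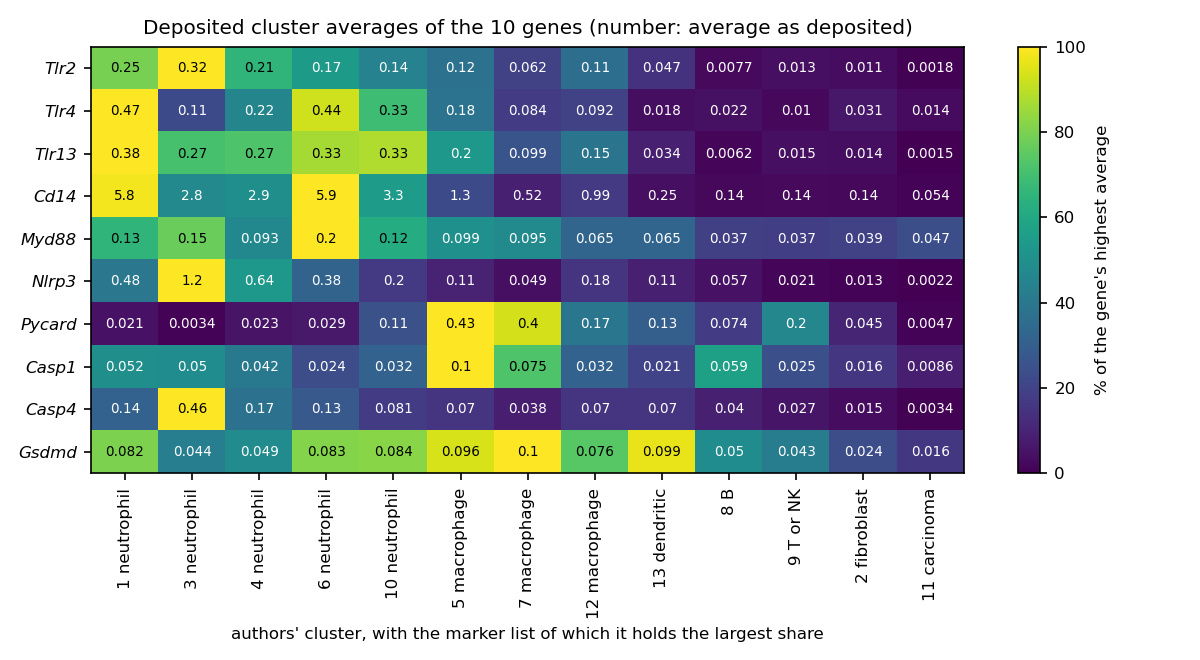
The authors' average of each gene in the 13 deposited clusters, printed as deposited and coloured by its percent of the gene's highest average, with the marker class of each cluster named. Nlrp3 and Casp4 share their peak in cluster 3, where Tlr4 (0.107) is lower than in the other 4 neutrophil clusters, and Pycard and Casp1 peak in the macrophage cluster 5.

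Across these 13 averages, taken as log2 of the average plus 0.01, 6685 genes were ranked by Pearson's r with each of the 10. Only genes with an average of at least 0.05 in some cluster were searched. The ranking is a description only, since the clusters come from 2 libraries. The closest to Casp4 was Nlrp3 itself (r = 0.98), followed by Acod1 (0.98), and the closest to Nlrp3 were Mcl1 (0.99) and Clec4e (0.99). Cd14 lay closest to Ccr1 (0.99) and Msrb1 (0.99), Tlr13 to Ccr1 (0.99) and Hk3 (0.99), Tlr2 to Cdkn1a (0.99) and Hk3 (0.98), and Tlr4 to F5 (0.99) and Arrdc3 (0.98). Myd88 lay closest to Ifitm2 (0.96) and Litaf (0.94), and Gsdmd to Actr2 (0.96) and Evi2a (0.95). Pycard, whose r was -0.27 with Nlrp3 and -0.10 with Tlr2, lay closest to Smpdl3a (0.96) and Ms4a6b (0.93), and Casp1 to Arl8b (0.95) and Lgals9 (0.89).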

How the data were processed

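Libraries of sorted cells were sequenced by the submitters and processed with Cell Ranger against mouse build mm10, per their processing notes. The deposited matrix holds UMI counts per gene and barcode made by the authors, with both libraries in a single matrix. A barcode's library was read from its suffix, and the authors' deposited library averages, a signal scaled to 1311 UMIs per cell, equalled the scaled sums by suffix over 19114 genes within 3.58e-08. The deposited cluster averages are a score whose scale is not given in the sources used here. Fold changes and p-values in the deposited cluster table are the authors' own comparisons and were not used. Cells with at least 200 genes, more than 500 and under 20000 UMIs and under 10% mitochondrial UMIs were kept.

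Counts were scaled to 10000 per cell, and 2000 variable genes, 100 principal components and 15 neighbours were clustered (Louvain, resolution 1.0) with scanpy 1.11.5 and igraph 0.11.9 in Python 3.11.15. A cluster was named from at least 3 markers that were present in 10% of its cells at 2 times the level elsewhere, unless its leading genes went against the name. No doublet caller was run, and leaving out mixed cells was an alternative. UMIs were summed per library and class, and the code for ratios with exact intervals (scipy 1.17.1) was run on simulated Poisson counts. Those counts follow the model that the intervals assume and hold no variation between cells, so they check the calculation only. No test between genotypes was possible with 1 library each. All 10 genes were named, with listed pathway genes where they reached 2-fold with 20 UMIs, and Il1b in neutrophil-like cells was named outside that rule after its values were seen. The members and lists were chosen with earlier results of these data known.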

Additional observations from a re-analysis of the deposited data

How the results depend on the processing

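No paired analysis was possible because each genotype has 1 library, so no replicate could be left out either. In neutrophil-like cells the count of genes at least 2-fold apart was 5, and 4 under 8 of 15 alternatives (without Cd14 in each) and 2 in cluster 3 alone. In macrophage or monocyte-like cells it was 3, kept by 7 of 11 alternatives, with 5 at clustering resolution 0.1 and 5 with the mean of per-cell CPM. Over all cells it was 3, kept by 3 of 8 alternatives, with 5 for the mean of per-cell CPM and 5 in cells with a UMI of any study marker. Between classes it ranged from 7 to 8 in Smad3-WT and from 5 to 9 in Smad3-KO. In the main sums, 7.63% of all genes were higher and 18.5% lower in neutrophil-like cells. The same shares were 12.3% and 14.7% in macrophage or monocyte-like cells and 16.3% and 15.4% over all cells. Between classes they were 11.8% and 50.9% in Smad3-WT and 14.2% and 44.5% in Smad3-KO. Apart from cluster 3, no such share was computed for the alternatives, so their counts describe the listed genes only.

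Among genes at least 2-fold apart, the ratio turned past 1 for Nlrp3 in cluster 3, where it was level (0.992, interval 0.640 to 1.49). In macrophage or monocyte-like cells it did so for Nlrp3 (0.465 at resolution 0.1, 0.813 without cells holding at least 3 study markers). There it also did so for Casp4 (0.832 and 0.989, the latter close to 1), and the cause was not tested. With the other genes included, 2 of 149 recomputed ratios lay on the other side of 1 in neutrophil-like cells (Nlrp3 and Myd88), 21 of 110 in macrophage or monocyte-like cells (7 genes), 10 of 80 over all cells (5 genes), and between classes 6 of 110 in Smad3-WT (Gsdmd) and 0 of 110 in Smad3-KO. Ratios outside the counting interval without such a turn of a 2-fold gene numbered 21, 22, 45, 40 and 20 in the same order. The comparisons of cluster 3 alone, of the class without it, and without shared barcodes were chosen after seeing the data. Depth limits Pycard, Casp1 and Gsdmd most.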
